A study of Homo sapiens with 5 samples.

Results

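The mRNAs of the MHC class I presentation machinery were followed in T84 cells, a line from a human colon carcinoma that forms chloride-secreting epithelium in culture. Included were all probe sets whose annotation names HLA-E, HLA-F, B2M, TAP1 or TAP2 and no other gene. This gave 6 of the 7018 probe sets on the array. B2M had 2 of them and each other gene 1. There were 5 Affymetrix arrays, and the labels call them biological replicates. The array labelled untreated (1 array, no interferon, hereafter the untreated-labelled array) came from a pooled control, the arrays labelled 6 h (2 arrays) from cells exposed to interferon-gamma at 1000 U/ml for 6 h, and the arrays labelled 18 h (2 arrays) from cells exposed to the same dose for 18 h. All groups are the same line, and the labels name no genetic change. Each probe set has a linear intensity from which a background had been taken off, so that some values are negative. An intensity of 20 served as a floor, because between 39.8% and 44.04% of each array's probe sets did not exceed it.

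MHC class I molecules show peptides made inside a cell to cytotoxic T cells. A heavy chain pairs with beta-2-microglobulin, the product of B2M, in the endoplasmic reticulum and leaves for the surface once a peptide is bound. Most of those peptides are cut by the proteasome in the cytosol and pumped into the endoplasmic reticulum by TAP, a transporter made of the subunits TAP1 and TAP2. HLA-E and HLA-F are non-classical heavy chains with little sequence variation between people. HLA-E carries peptides from the leader sequences of other class I chains and is read by the inhibitory receptor CD94/NKG2A on natural killer cells. Interferon-gamma is a textbook inducer of the pathway, acting in part through the transcription factor IRF1, and intestinal epithelium exposed to it raises class I at its surface.

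TAP1, TAP2, HLA-E and HLA-F lie on chromosome 6 in the MHC, and B2M lies on chromosome 15 (GRCh38.p14, NCBI RefSeq). TAP1 spans chr6:32845209-32853704 and TAP2 chr6:32821831-32838739, both on the minus strand, and the immunoproteasome gene PSMB8 lies between them. On the other side of TAP1, PSMB9 starts 487 bases away and runs the opposite way, so that both are read from the stretch between them. HLA-E spans chr6:30489509-30494194, HLA-F chr6:29723434-29738532 and B2M chr15:44711517-44718145. RefSeq promoter windows of 300 bases, from 250 before a gene's start to 50 from it, matched 4 of the 5 genes, all but HLA-E, and TAP1 had 2 windows.

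These windows were read for 2 motifs on both strands. Through elements like the first, interferon-gamma acts on class I genes. The letters GAAA, any 2 bases and GAAA again stand for the interferon-stimulated response element bound by IRF proteins, and GGACTTTCC for the core of a kappa-B site bound by NF-kB. A match to the first was in a window of each of the 4 genes, whereas 3.57% of all 35116 windows of the same length hold it. In TAP1 and in B2M it came as a pair of overlapping matches. The kappa-B letters were in the windows of TAP1 and B2M and in 0.37% of all windows. A match describes the letters only and does not show that a factor binds there.

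The full first TAP1 window is shown because TAP1 varied most between the arrays, and a short stretch around the IRF letters is shown for the other 3 genes for comparison. All are written 5′ to 3′ along the gene's own strand, from GRCh38.p14. Capitals mark the IRF letters, or their reverse complement, and in TAP1 also the kappa-B letters further on. The TAP1 window is chr6:32853655-32853954 on the minus strand, the B2M stretch chr15:44711353-44711408 on the plus strand, the HLA-F stretch chr6:29723258-29723307 on the plus strand, and the TAP2 stretch chr6:32838768-32838817 on the minus strand.
TAP1: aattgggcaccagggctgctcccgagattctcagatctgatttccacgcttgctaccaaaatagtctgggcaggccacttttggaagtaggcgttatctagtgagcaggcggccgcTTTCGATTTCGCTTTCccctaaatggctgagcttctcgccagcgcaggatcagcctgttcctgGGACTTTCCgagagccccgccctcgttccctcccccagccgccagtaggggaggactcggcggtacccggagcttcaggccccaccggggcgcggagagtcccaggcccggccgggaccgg
B2M: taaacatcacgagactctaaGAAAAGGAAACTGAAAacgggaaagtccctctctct
HLA-F: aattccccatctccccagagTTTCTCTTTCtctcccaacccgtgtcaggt
TAP2: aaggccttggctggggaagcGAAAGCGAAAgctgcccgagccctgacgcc
The first IRF match begins 134 bases before the annotated start in TAP1, 144 in B2M, 156 in HLA-F and 58 in TAP2. It reads on the gene's own strand in B2M and TAP2 and on the opposite strand in TAP1 and HLA-F.

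The identity of the cells and of the arrays was checked first. All 14 epithelial and colonocyte markers exceeded an intensity of 100 on at least 1 array, among them KRT18 at 1673 to 3271. Of 8 measured immune cell markers 2 did so (CD3E and LYZ). The CD3E probe set exceeded 100 on all 5 arrays, at 168 to 345, LYZ had 54 to 135, and CD14 was negative on all 5. Of 7 fibroblast and endothelial markers 2 did so (COL1A1 and PECAM1). The SD of all intensities, a measure of how far an array's scale reaches, was 308 on the untreated-labelled array, 410 and 245 on the 6 h arrays and 258 and 349.7 on the 18 h arrays. In RNA from whole cultures, fewer cells of a kind and less RNA per cell cannot be told apart.

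TAP1, the first subunit of the peptide pump, read 1772 in intensity on the untreated-labelled array. The 6 h replicates read 61 and 1208 in their labelled order, and the 18 h replicates 1346 and 2038. The array labelled 6 h replicate 1 was thus low and the other 4 high, including the untreated-labelled array. The mean of those 4 was 26.1 times the value on 6 h replicate 1. In brightness TAP1 ranked 46 among the 7018 probe sets on the untreated-labelled array, 66 on 6 h replicate 2, 53 and 60 at 18 h, but 2618 on the array labelled 6 h replicate 1. For a textbook target of interferon-gamma these levels go against the labels of the untreated-labelled array and of the array labelled 6 h replicate 1. Both are called by their labels throughout, both stay in their labelled groups, and every direction drawn against either rests on a label that TAP1 opposes.

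The 6 h arrays therefore gave a TAP1 mean of 634.5 ± 811 (SD, n = 2), against 1692 ± 489 (SD, n = 2) at 18 h and 1772 untreated. The log2 change was -2.70 (SE 2.09) at 6 h against untreated, -0.10 (SE 2.09) at 18 h against untreated and 2.60 (SE 1.71) at 18 h against 6 h, and none passed in limma after Benjamini-Hochberg adjustment (adjusted p = 1, 1 and 0.94). Its 18 h arrays lay above both 6 h arrays and on either side of the untreated-labelled array. Without 6 h replicate 1 the change between the times was 0.45 (SE 0.41), and without 6 h replicate 2 it was 4.74 (SE 0.41), with adjusted p = 0.797 and 0.248 in limma. The size of the TAP1 change thus depended on 1 array.

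TAP1 is also the only gene of the 5 in a list of induced genes that the authors deposited, where it is entry 46 of the 97 entries used here. In the authors' deposited table the control column gives 136 for TAP1, while the value table gives 1772 for the untreated-labelled array, 13.0 times as much. In the columns of the treated arrays, all 97 entries equal the value table. Against 136, the authors' deposited table gives ratios of 0.449 and 8.88 at 6 h, then 9.897 and 14.99 at 18 h. The list was chosen by its authors on these arrays, and no test was run on the ratios.

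**Figure D1:**
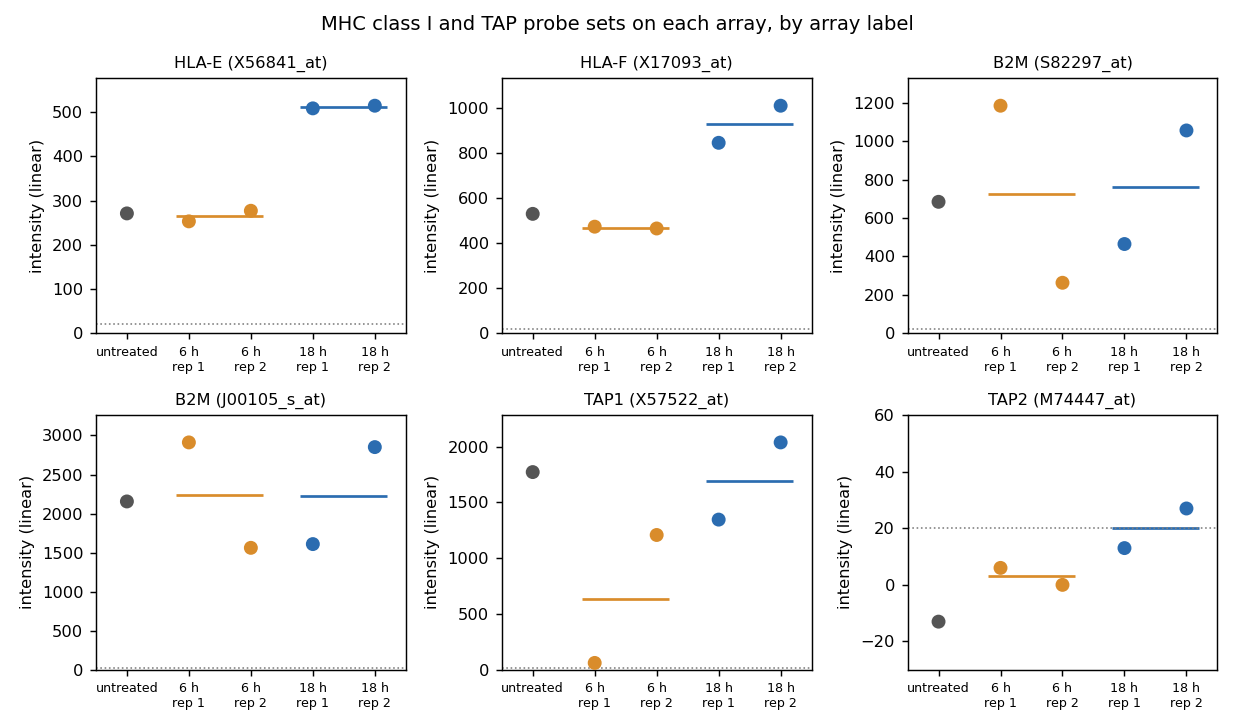
Linear intensity (y axis) of each of the 6 probe sets on the 5 arrays (x axis, by label); points are arrays, horizontal bars the means of the 2 arrays of a time, and the dotted line the floor of 20. HLA-E and HLA-F are higher on both 18 h arrays than on the other 3, TAP1 is low on 6 h replicate 1 alone at 61, and both B2M probe sets are high on 6 h replicate 1 and 18 h replicate 2.

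TAP2, the partner subunit, had -13 on the untreated-labelled array, 6 and 0 on the 6 h arrays, and 13 and 27 on the 18 h arrays. Its probe set exceeded the floor on 18 h replicate 2 alone, and it entered the test through that value. The log2 changes of 0, 0.21 (SE 0.29) and 0.21 (SE 0.23) in the 3 comparisons (either time against the untreated-labelled array, then between the times) are differences at the floor, and no fold is given for them. A change of TAP2 was not detectable with this probe set, which does not show that the transcript was absent.

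HLA-E had 271 on the untreated-labelled array, 253 and 277 on the 6 h arrays, and 509 and 515 on the 18 h arrays. Both 18 h arrays were higher than the other 3, which lay within a narrow range that includes the array where TAP1 was low. The 18 h mean of 512 ± 4.24 (SD, n = 2) was 1.93 times the 6 h mean of 265 ± 17.0 (SD, n = 2) and 1.89 times the untreated value. The log2 change was 0.95 (SE 0.18, 95% interval 0.41 to 1.49) at 18 h against 6 h, with an unadjusted p of 0.0104 and adjusted p = 0.94 over 5029 probe sets in limma. Against the untreated-labelled array it was 0.92 (SE 0.22) at 18 h (adjusted p = 0.985 in limma) and -0.03 (SE 0.22) at 6 h (adjusted p = 1).

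HLA-F, the other non-classical heavy chain, had 530 on the untreated-labelled array, 473 and 465 on the 6 h arrays, and 846 and 1011 on the 18 h arrays. Both 6 h arrays lay below the untreated-labelled array and both 18 h arrays above it. Of the 5029 probe sets tested, 2.45% showed this order and 5.01% showed it or its reverse. The 18 h mean of 928.5 ± 117 (SD, n = 2) was 1.98 times the 6 h mean of 469 ± 5.66 (SD, n = 2) and 1.75 times the untreated value. The log2 change at 18 h was 0.98 (SE 0.20, 95% interval 0.38 to 1.58) against 6 h and 0.80 (SE 0.24) against the untreated-labelled array, and neither passed limma after adjustment (adjusted p = 0.94 and 1). At 6 h against the untreated-labelled array it was -0.18 (SE 0.24, adjusted p = 1).

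HLA-E and HLA-F were thus near 2-fold higher at 18 h, at 212 and 228 from the top of the 5029 probe sets by change from 6 h (HLA-F and HLA-E in that order). Leaving out any 1 treated array kept the 18 h against 6 h change of HLA-E between 0.88 and 1.01 and that of HLA-F between 0.85 and 1.11. Without 6 h replicate 1, whose label TAP1 opposes, the difference was 0.88 for HLA-E and 0.99 for HLA-F. Class I heavy chains are close in sequence, and the probe sequences were not used here, so a part of either signal coming from another heavy chain was not tested.

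B2M encodes the light chain shared by all class I molecules. The brighter of its probe sets, J00105_s_at, whose suffix marks probes that can match more than 1 transcript, had 2155 on the untreated-labelled array, 2911 and 1561 on the 6 h arrays, and 1609 and 2851 on the 18 h arrays. The other, S82297_at, had 684, then 1185 and 262, then 464 and 1056. In both, 6 h replicate 1 and 18 h replicate 2 were high, 6 h replicate 2 and 18 h replicate 1 were low, and the untreated-labelled array lay between, so that the groups overlapped fully.

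The means of J00105_s_at were 2236 ± 955 (SD, n = 2) at 6 h and 2230 ± 878 (SD, n = 2) at 18 h, with a log2 change of 0.01 (SE 0.51, 95% interval -1.54 to 1.56) between them. For S82297_at that change was 0.33 (SE 0.99, 95% interval -2.68 to 3.34). Neither passed limma in any of the 3 comparisons (smallest adjusted p = 0.982). With the values as deposited, the intervals leave room for changes of the size seen in HLA-E.

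From highest to lowest, the arrays came in the same order by either B2M probe set as by the SD of all intensities. The part of the scale in the B2M values was not tested. Divided by the SD of its array, J00105_s_at was 6.997 on the untreated-labelled array, 7.10 and 6.37 at 6 h, and 6.23 and 8.15 at 18 h, which is a narrower spread. By rank it was among the 24 brightest probe sets on each array. After quantile normalization, which gives all arrays the same distribution, J00105_s_at read 2211, 2029, 2276, 2211 and 2411 in the order of the labels, a highest over lowest ratio of 1.19 against 1.86 as deposited. S82297_at kept a ratio of 4.17 (4.52 as deposited), so its swing remained. With this normalization the log2 change at 18 h against 6 h was 0.10 (SE 0.18) for J00105_s_at. That SE is smaller than the 0.51 of the values as deposited. For S82297_at the change was 0.44 (SE 0.94). Under the same normalization TAP1 read 1847, 67.4, 1717, 1802 and 1764, HLA-E 263.6, 272.6, 257.2, 486.2 and 533.5, and HLA-F 532.6, 480.2, 441.2, 906.4 and 979.4. The pattern of TAP1, HLA-E and HLA-F was therefore also present with the scale evened out, with the 4 high TAP1 arrays closer together.

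**Figure D2:**
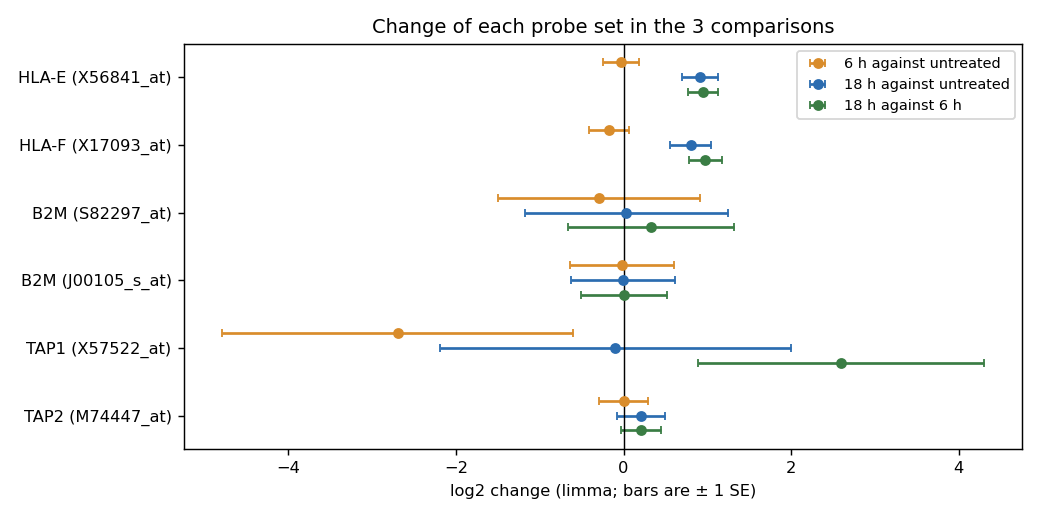
Log2 change (x axis, limma, bars ± 1 SE) of each probe set (y axis) in the 3 comparisons, as labelled. HLA-E and HLA-F lie between 0.80 and 0.98 in both comparisons of 18 h, the bars of B2M and TAP2 cross 0, and the TAP1 bars are the widest, with an SE of 2.09 against untreated.

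Over all probe sets, limma called 0 of 5029 in each of the 3 comparisons after adjustment (0%), and 0 of the 6 here. At an unadjusted p under 0.05, 2 of the 6 (HLA-E and HLA-F) passed at 18 h against untreated, where 4.43% of all probe sets did, and the same 2 passed at 18 h against 6 h, where 4.31% did. None of the 6 did at 6 h against untreated (3.64% of all). Both 18 h arrays lay above both 6 h arrays in 3 of the 6 (HLA-E, HLA-F and TAP1), against 11.4% of all probe sets. Without 6 h replicate 1, an omission chosen after seeing the data, this count was 5 of the 6, against 24.7%. It then took in both B2M probe sets, whose groups overlap when all arrays are kept. For J00105_s_at the order rested on 1609 on 18 h replicate 1 against 1561 on 6 h replicate 2. After quantile normalization these were 2211 and 2276, the reverse order. Both 18 h arrays lay above the untreated-labelled array in 2 of the 6 (HLA-E and HLA-F), against 23.4% of all. Both 6 h arrays lay below it in 2 of the 6 (HLA-F and TAP1), against 27.8% of all.

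The median log2 change over the 6 probe sets was -0.10 at 6 h against untreated, 0.12 at 18 h against untreated and 0.64 at 18 h against 6 h, while the median over all 5029 was 0, -0.02 and -0.03. The comparisons share arrays, and the B2M probe sets share a target, so the 6 values are not independent. The median at 18 h against 6 h falls between the pair HLA-E and HLA-F and the B2M probe set S82297_at, and no single gene stood at it.

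Other genes of the pathway were read in the same way, from lists of its steps. The immunoproteasome subunits PSMB8, PSMB9 and PSMB10 replace the catalytic subunits of the constitutive proteasome and cut peptides that fit class I, and PSME1 is a subunit of the activator PA28. PSMB9, the head-to-head neighbour of TAP1, had 981 on the untreated-labelled array, 156 and 1208 at 6 h, and 1848 and 2443 at 18 h. PSMB8, which lies between TAP1 and TAP2, had 720, then 165 and 711, then 1110 and 1129. Both were low on 6 h replicate 1, as TAP1 was, and both were higher on the 18 h arrays than on the other 3, as HLA-E and HLA-F were.

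PSMB10, encoded outside the MHC, had 543, then 376 and 813, then 1239 and 1470, and PSME1 had 986, then 838 and 1015, then 1302 and 1471. All 4 measured genes of this list lay above 0 at 18 h against both other groups, where 42.3% (against untreated) and 45.4% (against 6 h) of all probe sets did. Their median log2 change was 0.88 against untreated and 1.495 against 6 h, and 0 of the 4 passed limma. Without 6 h replicate 1 the median against 6 h was 0.69, and without 6 h replicate 2 it was 2.30. With the replicate number as a block the median against untreated was 0.33. The constitutive counterparts PSMB5, PSMB6, PSMB7 and PSME3 had medians of -0.03 and -0.04 in the same comparisons, with 1 and 2 of the 4 above 0 and 0 called.

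Peptide loading takes place with the help of chaperones that hold the heavy chain. Calnexin (CANX) had 1017 on the untreated-labelled array, 960 and 923 at 6 h, and 862 and 1047 at 18 h, and the chaperone HSPA5 stayed between 772 and 883. The disulfide isomerase PDIA3 had 323, then 510 and 485, then 576 and 423. Calreticulin (CALR) had 246, then 598 and 268, then 225 and 613, high on the same 2 arrays as B2M. Of these 4 measured genes, 2 lay above 0 at 18 h against untreated and 2 against 6 h, with 0 called by limma. TAPBP, TAPBPL, ERAP1 and ERAP2 were not analysed here.

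Of 12 measured genes for other class I heavy chains and class I-like molecules, 7 never exceeded the floor, among them HLA-G (-5 to 18) and the HLA-C probe set (-230 to -171), whose values are negative on every array. FCGRT, the neonatal Fc receptor, which also pairs with B2M, had 847 on the untreated-labelled array, 1156 and 914 at 6 h, and 880 and 871 at 18 h. MICB, a stress ligand that does not need B2M, had 94, then 65 and 49, then 97 and 103. AZGP1, a secreted class I-like protein, had 117, then 337 and 159, then 116 and 164. The 5 genes of this list that were tested had median log2 changes of 0.09 at 18 h against untreated and -0.13 against 6 h, with 0 called.

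Among the regulators, IRF1, which binds the paired GAAA letters, had 1086 on the untreated-labelled array, 14 and 907 at 6 h, and 933 and 921 at 18 h. NFKB1, a subunit of NF-kB, had 185, then -13 and 191, then 151 and 62. Both were lowest on the array labelled 6 h replicate 1, as TAP1 was. RELA had 576, then 356 and 549, then 590 and 416, CREB1 stayed between 91 and 110, and RFX5, which binds MHC promoters, had 31, then 49 and 112, then 67 and 60. Over the 7 regulators tested the median log2 change was 0.01 at 18 h against untreated and 0.15 against 6 h, with 0 called. Leaving out 1 array turned both directions: the first was -0.24 without 18 h replicate 1, and the second -0.23 without 6 h replicate 1 and -0.0876 without 18 h replicate 1. NLRC5 and RFXANK were not analysed here.

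The lymphocyte receptors of HLA-E and HLA-F served as a check for immune cells. CD94 (KLRD1), KLRC3 and the leukocyte receptor LILRB1 never exceeded 20 except KLRD1 on 6 h replicate 2, at 58. ABCB10, another ABC transporter, had 49, then 41 and 76, then 47 and 4, with 0 called.

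**Figure D3:**
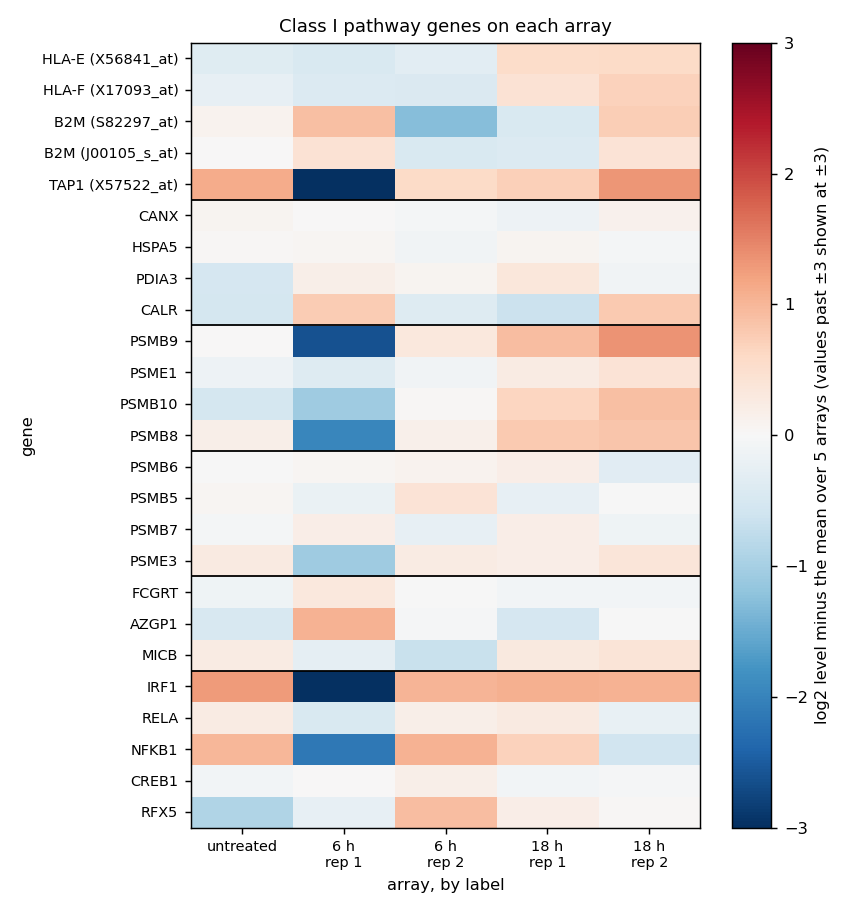
Log2 level of each gene minus its own mean over the 5 arrays (colour; blue low, red high, values past ±3 shown at ±3), by array label (x axis) and gene (y axis); the lines separate, from the top, the studied probe sets without TAP2, peptide loading, immunoproteasome, constitutive counterparts, class I-like molecules and regulators. TAP1, PSMB9, PSMB8, IRF1 and NFKB1 are deepest blue on 6 h replicate 1, and HLA-E and HLA-F turn red on the 18 h arrays.

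The genes whose profile over the 5 arrays lay nearest to each of these were found among 1676 probe sets with a mean intensity of at least 100, as the root mean square distance between log2 levels centred on their own means. For TAP1 the nearest was the chemokine gene CXCL10 (distance 0.21), followed by CXCL11 (0.25), PLA2G2A (0.38), GBP1 (0.38) and IRF1 (0.43), where the median distance was 1.89. All 5 were low on 6 h replicate 1 and high on the others, from CXCL11 at -9 to CXCL10 at 41 on that array. These are known interferon targets, apart from PLA2G2A, a secreted phospholipase, whose regulation is not considered here.

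HLA-E lay nearest to UPF1 (distance 0.05), a factor of nonsense-mediated decay, then SERPING1 (0.09), the C1 inhibitor, MTMR11 (0.12), the transcription factor KLF6 (0.13) and SLC35A1 (0.15), against a median of 0.59. UPF1 had 121 on the untreated-labelled array, 114 and 134 at 6 h, and 239 and 226 at 18 h. HLA-F lay nearest to UPF1 (0.15), LGALS9 (0.16), SERPING1 (0.18), OAS1 (0.18) and the class II chain HLA-DRA (0.18). UPF1 and SERPING1 were in both lists of 5.

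B2M (J00105_s_at) lay nearest to the ribosomal protein gene RPS15 (distance 0.03), CEACAM5 (0.06), LGALS3 (0.06), the glycolytic gene GAPDH (0.06) and the keratin KRT18 (0.06), against a median of 0.52. GAPDH had 1743 on the untreated-labelled array, 2557 and 1228 at 6 h, and 1276 and 2238 at 18 h. These are abundant transcripts of the cell line, and they share the order of arrays that the SDs showed. For TAP2, flat at the floor, nearness only finds other flat probe sets, and none is named.

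**Figure D4:**
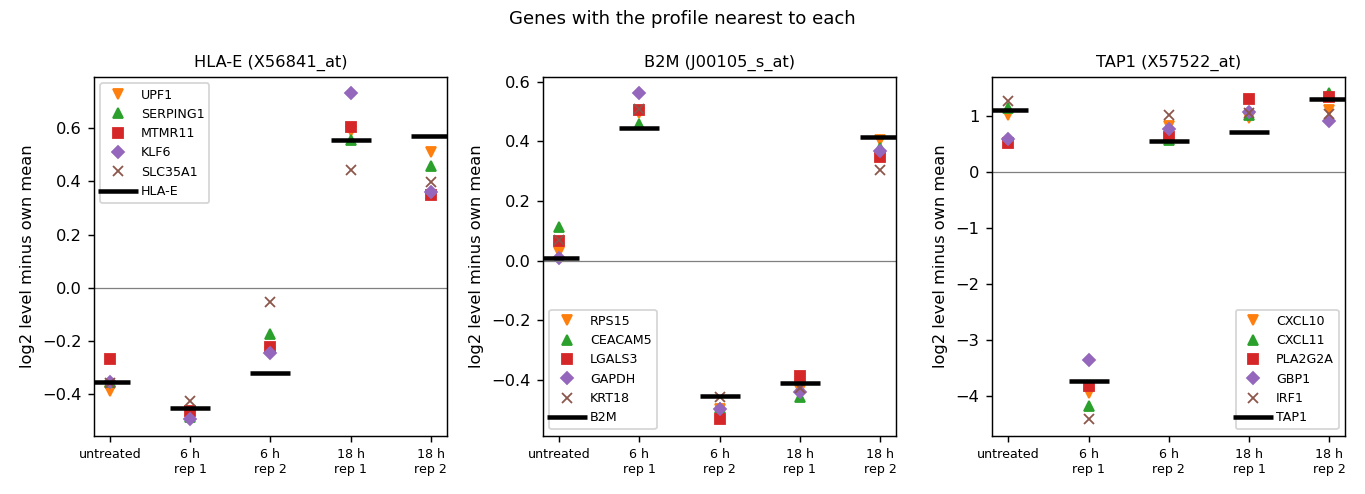
Log2 level minus own mean (y axis) on each array (x axis, by label) for HLA-E, B2M (J00105_s_at) and TAP1 (black bars) and for the 5 nearest probe sets of each (coloured marks). The panels show the 3 patterns: HLA-E high at 18 h, B2M alternating between the arrays of a time, and TAP1 low on 6 h replicate 1 alone.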

How the data were processed

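The deposited values are linear intensities per probe set, made by the authors as whole numbers. The label and extraction protocols name Trizol RNA and biotin labelling for Affymetrix arrays, while the computation of the intensity, its background and its scaling are not given in the sources used here. Among 7018 probe sets, the annotation gave a single symbol to 5649, more than 1 to 321 and none to 1048, with 0 changed by a look-up in RefSeq. Arrays were grouped by their titles. Values below 20 were raised to 20, and log2(value + 1) was used, so that folds of dim genes are understated, and 5029 probe sets above 20 on at least 1 array were tested. limma 3.58.1 in R 4.3.3 (lmFit, eBayes) compared the 3 groups with no block, with Benjamini-Hochberg adjustment, a threshold of 0.05, 2 residual degrees of freedom and 1.24 from the prior. Having no replicate, the untreated-labelled array was given the spread of the treated arrays. The number of arrays limits the precision. Separate cultures are not described in the labels, so the p-values reflect only how these arrays vary, which may be technical.

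Named genes are the 5 genes, the members of 7 pathway lists (values for those above 100 on an array, and for HLA-C, HLA-G, KLRD1 and ABCB10, chosen after their values were seen) and, for the brightest probe set of each of the 5 genes, the 5 nearest profiles. These, the lists and the floor were chosen with earlier results of these data known. Alternatives were floors of 0, 50 and 100, a pseudocount of 16, no filter, a mean of at least 100, quantile normalization, a replicate block, each treated array left out, and fits of only the groups compared.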

Additional observations from a re-analysis of the deposited data

Results flagged for a closer look

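HLA-F, PSMB8 and MICB are listed because both 6 h arrays lay on the lower side of the untreated-labelled array and both 18 h arrays on the upper side, an order that 2.45% of the 5029 probe sets showed. The opposite order would also have been listed, and 5.01% of the 5029 showed either. Screened were the 6 studied probe sets and the listed pathway genes above 100 on an array. By list, those genes were 4 of peptide loading, 4 of the immunoproteasome and activator, 4 constitutive counterparts, 3 class I-like and 5 regulators. The 18 h mean exceeded the 6 h mean by an intensity of 459.5 for HLA-F, 681.5 for PSMB8 and 43.0 for MICB. limma's test of the difference between the times did not pass for any of the 3 (adjusted p = 0.94 each, unadjusted p = 0.0131, 0.129 and 0.0354). For PSMB8 the gap at 6 h rests on replicate 1, at 165, since replicate 2 had 711 against 720. All 3 were read against the untreated-labelled array, whose label TAP1 opposes.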

How the results depend on the processing

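Of 210 recomputed log2 changes of the 5 probe sets other than that of TAP2, 192 kept their direction and their side of the threshold, 18 changed direction and 0 came to pass it. For many of the 210 the direction could not change, because the value was the same as in the main fit. This held with another filter, with only the groups compared, and where the array left out was outside the comparison. It also held between the times with a replicate block. Among the alternative floors only the highest moved any value, that of TAP1. With no call in the main fit, no call could be lost. HLA-E and HLA-F at 18 h were higher under every alternative run. The change of TAP2, which passed the floor of 20 on 18 h replicate 2 only, depended on that floor: with a floor of 0 it was 1.40 at 6 h and 4.31 at 18 h, both from the untreated-labelled array, and 2.90 between the times, with no call. Under quantile normalization the changes against untreated were 0.00647 for HLA-E at 6 h, and 0.0624 for B2M J00105_s_at and -0.0308 for B2M S82297_at at 18 h. Without 1 treated array, HLA-E at 6 h against untreated ranged from -0.0988 to 0.0315, and TAP1 at 18 h against untreated from -0.40 to 0.20. Under the same omissions B2M J00105_s_at ranged from -0.46 to 0.43 (6 h against untreated), -0.42 to 0.40 (18 h against untreated) and -0.44 to 0.46 (18 h against 6 h), and B2M S82297_at from -1.38 to 0.79, -0.56 to 0.63 and -0.76 to 1.41. The cause was not tested.

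With the replicate number as a block, B2M J00105_s_at was 0.0028 at 6 h and 0.0096 at 18 h against untreated, TAP1 was -3.92 and -1.32, TAP2 -0.10 and 0.10, and the immunoproteasome median at 18 h against untreated was 0.33. In that fit 0 probe sets were called in each comparison. The deviations of same-numbered arrays from their group means had r = -0.29 over 5029 probe sets, and the labels name nothing that same-numbered arrays share, so the number was not taken as a pairing. A block with crossed numbers, chosen after seeing the data, gave 0.42 for J00105_s_at at both times (0.415 at 6 h and 0.422 at 18 h), 0.54 for S82297_at at 6 h and 0.87 at 18 h, -3.62 and -1.02 for TAP1, and a median over the 6 of 0.65 at 18 h against untreated, with 0 calls.

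Testing all 7018 probe sets, with 1989 more at the floor on every array, called 100 at 6 h against untreated, 97 at 18 h against untreated and 1 between the times, none of them among the 6 probe sets, where the filtered test called 0. The added probe sets have no spread and lowered the prior to 0.363 degrees of freedom. The median at 18 h against 6 h was 0.96 with a floor of 0 and 0.95 with floors of 50 or 100 or a mean of at least 100, the last 3 without TAP2. Without 1 treated array the medians ranged from -0.327 to -0.0494 (6 h against untreated), -0.40 to 0.52 (18 h against untreated) and 0.59 to 0.94 (18 h against 6 h). Over the same omissions, chosen after seeing the data, the number of these probe sets with all 18 h arrays above the other group was 3 to 5 against 6 h, where 24.6% to 32.8% of all probe sets did so, and 2 to 6 against untreated, where 24% to 42.2% did. The count of 6 came without 18 h replicate 1, where the share was 42.2%, and includes TAP2. Without 18 h replicate 2, 5 were tested.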
